A study of Mus musculus with 2 samples.

Results

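The 9 genes described here write, erase and read methyl groups on DNA: Dnmt1, Dnmt3a, Dnmt3b, Tet1, Tet2, Tet3, Mbd1, Mbd2 and Uhrf1. They were taken by name, 9 of 21938 protein-coding genes of the GENCODE M21 annotation of mouse build mm10, and each was examined over its gene body with 10 kb on each side and in windows of 500 bases on each side of every annotated transcript start. The assay was DNase-seq: nuclei are treated with DNase I, a nuclease that cuts exposed DNA more readily than DNA wrapped in nucleosomes, and the cut ends are sequenced to map open chromatin. The tissue was left cerebral cortex of adult female mice aged 18 to 20 months from the B6CASTF1/J cross, first-generation hybrids of C57BL/6J and CAST mice. All samples formed 1 group of 2 libraries, called library 1 and library 2 after the biological replicate numbers in the labels, with no treatment and no control. The labels name separate tissue samples but a single donor identifier, so the spread between the libraries may be technical, and no test between conditions was possible.

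In mammals DNA methylation sits mostly on cytosines followed by guanine (CpG sites). Dnmt3a and Dnmt3b add methyl groups to unmethylated DNA, and Dnmt1 copies them to the new strand after replication, guided by Uhrf1, which binds half-methylated sites. The Tet enzymes oxidise methylcytosine to hydroxymethylcytosine and further products, the start of active removal, and Mbd1 and Mbd2 bind methylated DNA and recruit repressor complexes. In the brain, Dnmt3a is known for methylating cytosines outside CpG sites in neurons after birth, and hydroxymethylcytosine is more abundant in neurons than in most other cells. Several of these genes have more than 1 promoter, used in different cells.

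The authors' longer peak lists held 132054 peaks in library 1 and 139799 in library 2. The value used throughout is the signal of a peak, a number the authors gave each peak without a stated normalization, which had a median of 0.640 and 0.641 over all peaks of the libraries. Sequencing depth is unknown. A gene's promoter signal is that of the strongest peak reaching into any of its start windows, or 0 where there was none. The tissue label was set beside marker genes: 8 of 8 cortical neuron genes were open at a start in each library and 0 of 8 liver genes were in either. Over all protein-coding genes 63.6% were open in each library, and so were 6 of 6 proliferation genes. The open neuron genes by themselves therefore say little about the tissue. A bulk signal cannot tell fewer accessible cells from less accessibility per cell, and a peak shows open DNA, not transcription.

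Both libraries showed a promoter peak at all 9 genes, while 63.6% of protein-coding genes had one in each. A gene with more annotated starts has more windows in which a peak can fall. The 9 genes had 74 separate starts, and the 21938 protein-coding genes had 93513. The median promoter signal of the 9 genes was 3.95 in library 1 and 4.14 in library 2. Over all protein-coding genes the median was 1.31 in library 1 and 1.55 in library 2. Among the 13956 genes open in each library the medians were 3.13 and 3.47, so the 9 genes lay mostly inside the usual range of open promoters, whose middle 50% ran from 1.52 to 5.13 and from 1.78 to 5.33. Mbd1 and Dnmt1 lay above that range in both libraries, and Dnmt3b lay below it in both.

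**Figure D1:**
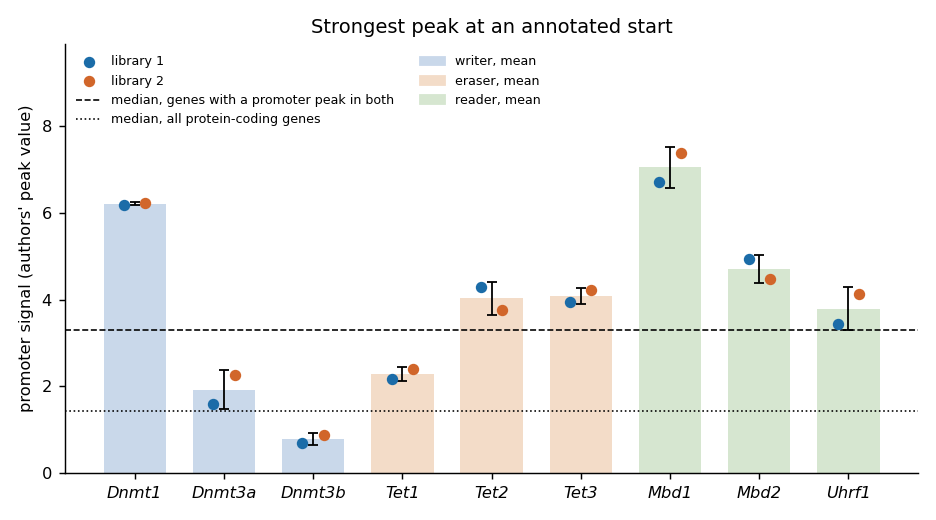
Promoter signal (the authors' peak value, vertical axis) of the 9 genes, with points for library 1 and library 2, bars for the mean and error bars for the SD (n = 2), coloured by role. Dashed and dotted lines are the means over the libraries of the medians of genes open in each library and of all protein-coding genes. Mbd1 and Dnmt1 stand highest, at 7.05 and 6.21, and Dnmt3b lowest, at 0.778.

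In order of mean promoter signal the genes were Mbd1, Dnmt1, Mbd2, Tet3, Tet2, Uhrf1, Tet1, Dnmt3a and Dnmt3b. Among neighbours in that order, Tet3 and Tet2 changed places between the libraries, and so did Tet2 and Uhrf1. Tet1 was above Dnmt3a in each library, with 2.18 against 1.60 and 2.40 against 2.25, though their ranges over the libraries overlapped. All other neighbours were apart in both libraries. The 3 top places were held by Mbd1, Dnmt1 and Mbd2 in each library.

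About as many annotated starts of these genes were closed in both libraries as were open in both. Of 74 separate starts, 34 had a peak in the window in both libraries, 1 in library 1 alone, 4 in library 2 alone and 35 in neither. The share with a peak in both was 45.9%, and over the 93513 separate starts of all protein-coding genes it was 51.7%. Starts within 500 bases of the next were joined into 48 groups, of which 14 had a peak in both libraries and 30 in neither. Groups were not counted over all protein-coding genes, and the 51.7% of separate starts is no measure for them. Each gene had 1 or 2 groups open in both libraries, among 3 to 12 annotated ones.

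Dnmt1, the maintenance methyltransferase (chr9:20907209-20959888, minus strand), had a promoter signal of 6.19 in library 1 and 6.24 in library 2, a mean of 6.21 ± 0.0382 (SD, n = 2). These were the closest values of any of the 9 genes. The peak, chr9:20952821-20953060 in library 1 and chr9:20952801-20953040 in library 2, lay over the start of transcript Dnmt1-201 at position 20952979 and also fell in the windows of 3 starts downstream. It ranked above 98.4% of all peaks in library 1 and 98.5% in library 2. A start 6909 bases upstream, at position 20959888 (Dnmt1-202), had no peak in either library, the nearest lying 6828 bases away in library 1 and 6848 in library 2, and no base within 500 bases had a false discovery rate under 0.05 in the authors' per-base tables. Oocytes are known to use a Dnmt1 start upstream of the one used in body cells. Away from the starts, a peak near the end of the gene, chr9:20910121-20910280 in library 1 and chr9:20910041-20910160 in library 2, had signals of 0.905 and 1.21. Its midpoint fell in an exon in library 1 and in an intron in library 2. A peak beyond the gene, chr9:20901592-20901680, had 0.892 and 0.598.

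The promoters of both starts are printed to set an open against a closed sequence of 1 gene, 250 bases up to the start in the direction of the gene, from RefSeq (GRCm38.p6). This is the C57BL/6J reference, so bases of the CAST chromosome may differ. Capitals mark bases inside footprints, short stretches protected from cutting that the authors called at a q-value of 0.01, in either library.
Dnmt1 open start, chr9:20952980-20953229, minus strand: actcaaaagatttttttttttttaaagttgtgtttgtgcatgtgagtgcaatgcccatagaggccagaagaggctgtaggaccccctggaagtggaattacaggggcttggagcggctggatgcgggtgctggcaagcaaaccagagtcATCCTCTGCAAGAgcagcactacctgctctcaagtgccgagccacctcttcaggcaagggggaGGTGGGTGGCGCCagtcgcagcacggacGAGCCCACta
Dnmt1 closed upstream start, chr9:20959889-20960138, minus strand: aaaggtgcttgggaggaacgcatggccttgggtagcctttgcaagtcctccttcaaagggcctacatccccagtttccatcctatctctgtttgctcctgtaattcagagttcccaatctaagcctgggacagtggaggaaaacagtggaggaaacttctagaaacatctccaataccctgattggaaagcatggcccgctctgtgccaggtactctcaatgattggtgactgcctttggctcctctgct
The open promoter held 34 footprint bases in the printed stretch and 12 CpG sites in the 300 bases reaching 50 past the start. The closed one held 0 footprint bases and 2 CpG sites.

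Just past its starts Dnmt1 carried matches to the motif of NRF1, a transcription factor of housekeeping and mitochondrial genes. A pair of sites of 10 bases matching the NRF1 core (GCGCANGCG, and overlapping itself on the other strand) followed the starts at 20952979 and 20952623, and all 10 bases of each were inside footprints in both libraries. They are printed as 30 bases with the match in capitals.
Dnmt1 site past the start at 20952979, chr9:20952931-20952960, minus strand: cctccgttgcGCGCATGCGCactcccttcg
Dnmt1 site past the start at 20952623, chr9:20952590-20952619, minus strand: cagccagggcGCGCATGCGCggggcagcgt
The first lay inside the promoter peak and the other outside it. A match is a string of letters, and binding of NRF1 was not measured.

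Dnmt3a, the de novo methyltransferase of neurons (chr12:3806007-3914443, plus strand), had a modest promoter peak, with a signal of 1.60 in library 1 and 2.25 in library 2 (mean 1.93 ± 0.461, SD, n = 2). That placed it at percentiles 53.1 and 56.8 of protein-coding genes, close to their middle. The peak at chr12:3806861-3807080 (library 1) lay over the starts of Dnmt3a-201 and Dnmt3a-204. A second peak, chr12:3806293-3806532, with signals of 1.26 and 1.55, overlapped the starts at 3806498 and 3806527 in library 1 and that at 3806498 alone in library 2, and the most upstream start, at 3806007, lay 286 and 274 bases from it. Of 12 start groups along the gene, these 2 were open in both libraries, 2 had a weak peak within 500 bases in library 2 alone, of 0.672 and 0.610, and 8 had none. The peak of 0.610, near the start at 3900281, had a stronger counterpart of 0.953 in library 1, which lay 501 bases from that start and so just outside the window.

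The closed starts of Dnmt3a included the internal pair at 3891728 and 3891744, where no base had a false discovery rate under 0.05 in either library. The nearest peak to position 3891744 lay 1198 and 1049 bases downstream, with signals of 0.647 and 0.771. The shorter isoform Dnmt3a2, known from embryonic stem cells and germ cells, is made from a start inside the gene. The open and the closed promoter are printed as above, the closed one up to position 3891727, before the first start of the pair.
Dnmt3a open start, chr12:3806730-3806979, plus strand: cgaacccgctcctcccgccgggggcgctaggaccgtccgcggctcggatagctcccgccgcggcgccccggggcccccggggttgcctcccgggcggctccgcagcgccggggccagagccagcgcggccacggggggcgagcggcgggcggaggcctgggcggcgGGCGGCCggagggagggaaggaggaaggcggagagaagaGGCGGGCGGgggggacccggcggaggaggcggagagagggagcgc
Dnmt3a closed internal start, chr12:3891494-3891727, plus strand: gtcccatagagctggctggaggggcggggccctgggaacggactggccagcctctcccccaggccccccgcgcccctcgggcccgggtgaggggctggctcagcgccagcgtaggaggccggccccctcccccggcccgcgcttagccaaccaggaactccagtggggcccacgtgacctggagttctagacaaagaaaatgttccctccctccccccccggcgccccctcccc
Both are rich in G and C, with 82.3% in the open and 74.0% in the closed 300-base promoter, but they held 46 and 18 CpG sites.

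Within Dnmt3a, 2 intronic peaks were as strong as its promoter or stronger. The peak at chr12:3871741-3871960 had a signal of 2.13 in library 1 and 2.40 in library 2, and that at chr12:3817161-3817360 had 2.13 and 2.36. Both means, 2.27 and 2.25, were above the promoter mean of 1.93, by less than the promoter's SD of 0.461. Further intronic peaks at 3823461, 3833941 and 3887621 had means of 1.62 to 1.68. Of the 14 matched peak pairs in the window 10 lay away from any start in both libraries.

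Dnmt3b, the other de novo methyltransferase, known mainly from the early embryo (chr2:153649450-153687730, plus strand), had the weakest promoter of the 9 genes. Its signal was 0.681 in library 1 and 0.876 in library 2 (mean 0.778 ± 0.138, SD, n = 2), near the median of all peaks. An intronic peak at chr2:153680061-153680240 was stronger in both libraries, with 1.09 and 1.36. Another peak, of 0.565 and 0.413, lay near the start of the retained-intron transcript Dnmt3b-212. The 300-base RefSeq promoter had 76.0% G and C and 30 CpG sites, close to the medians of the open promoters of these genes, 73.7% and 33, and footprints covered 8 of its bases in library 1 and 0 in library 2.

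Tet1, an oxidase known to be made as a longer form in embryonic stem cells and a shorter one in adult tissues (chr10:62804570-62908996, minus strand), was the only 1 of the 9 genes whose promoter peak did not lie at a protein-coding start. Its strongest peak, chr10:62865261-62865600, had a signal of 2.18 in library 1 and 2.40 in library 2 (mean 2.29 ± 0.156, SD, n = 2) and covered the start at 62865304 of Tet1-202, a processed transcript without a coding sequence. None of the 8 starts of protein-coding Tet1 transcripts had a peak in both libraries. The strongest peak near any of them had a signal of 0.470 in library 1, at 62892986, and of 0.296 in library 2, at 62887512 and 62887324. In each case the other library had none. The remaining 8 genes had at least 1 protein-coding start with a peak in both. The share of all protein-coding genes with such a start was not counted, so how unusual Tet1 is in this is unknown.

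The open region of Tet1 lay 22020 bases downstream of the RefSeq start at 62887324 and 43692 bases downstream of the most upstream start, at 62908996. Downstream of it, an intronic peak at chr10:62851101-62851260 had signals of 1.74 and 1.47, and another at chr10:62847041-62847280 had 0.824 and 1.02. Their means were 1.60 and 0.924, below that of the start.

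Tet2, an oxidase without a DNA-binding CXXC domain of its own (chr3:133463679-133545139, minus strand), had a promoter signal of 4.30 in library 1 and 3.76 in library 2 (mean 4.03 ± 0.386, SD, n = 2). The peak at chr3:133544241-133544480 lay over the starts of Tet2-201 to Tet2-204. A broader peak beside it, chr3:133544681-133545240, with signals of 1.31 and 1.73, reached the windows of the most upstream Tet2 start, at 133545139, and of a start of the neighbouring Gm42567, so it cannot be assigned to either gene. All 5 start groups further inside the gene, between 133471817 and 133480682, were closed. Away from the starts the strongest peak, chr3:133543221-133543400, had 1.05 and 1.10, and chr3:133497021-133497240 had 0.599 and 0.407. A further intronic peak, chr3:133509931-133510131, had nearly the same mean, with 0.388 and 0.617.

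Tet3, the oxidase known from oocytes and neurons (chr6:83362373-83459084, minus strand), had a promoter signal of 3.95 in library 1 and 4.22 in library 2 (mean 4.09 ± 0.186, SD, n = 2). The peak had the same limits in both libraries, chr6:83441561-83441820, over the starts of Tet3-201, Tet3-202 and a retained-intron transcript, and the start of B230319C09Rik also lay in its window. A start 14714 bases upstream (Tet3-203) had a weaker peak, of 1.17 and 1.23, and the most upstream start, at 83459084 (Tet3-204), had none. Just downstream of the main start lay 5 further peaks in each library between 83438641 and 83441100. Their midpoints fell in an exon of that retained-intron transcript and of no other Tet3 transcript. The strongest, chr6:83440461-83440860 in library 1, had 2.50 and 2.44, and the next, chr6:83440861-83441100, had 2.24 and 2.04.

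The promoters of Tet2 and Tet3 are printed because each has a GC box (GGGCGG on either strand) just before the start that lay wholly inside footprints of both libraries, with footprint bases in capitals as before.
Tet2 start, chr3:133544391-133544640, minus strand: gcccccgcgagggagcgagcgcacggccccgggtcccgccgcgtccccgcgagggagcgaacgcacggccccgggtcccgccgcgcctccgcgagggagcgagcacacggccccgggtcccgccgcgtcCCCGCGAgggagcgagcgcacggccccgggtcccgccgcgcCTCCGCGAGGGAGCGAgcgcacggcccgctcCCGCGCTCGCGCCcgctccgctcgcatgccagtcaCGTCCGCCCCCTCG
Tet3 start, chr6:83441679-83441928, minus strand: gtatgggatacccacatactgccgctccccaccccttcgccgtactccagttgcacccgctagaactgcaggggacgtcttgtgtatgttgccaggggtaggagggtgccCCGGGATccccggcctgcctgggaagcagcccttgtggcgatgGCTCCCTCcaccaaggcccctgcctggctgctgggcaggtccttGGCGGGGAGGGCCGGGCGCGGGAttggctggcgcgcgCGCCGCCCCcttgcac
The Tet2 stretch held 50 footprint bases and the Tet3 stretch 47. The Tet2 promoter had 57 CpG sites in 300 bases, the most of the 12 RefSeq promoters of these genes, and the Tet3 promoter had 22.

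Mbd1, which binds methylated CpG sites and recruits histone methyltransferases (chr18:74267605-74282732, plus strand), had the strongest promoter peak of the 9 genes. Its signal was 6.72 in library 1 and 7.38 in library 2 (mean 7.05 ± 0.469, SD, n = 2), at percentiles 92.2 and 95.2 of protein-coding genes. The peak, chr18:74267981-74268280, had the same limits in both libraries and reached the windows of 4 starts. The 2 starts inside the gene were closed, and no peak lay in its introns. The only other peak of the window, with signals of 1.57 and 1.71, stood at the start of the neighbouring Cfap53.

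Mbd2, the methyl-binding subunit of a nucleosome remodelling and deacetylase complex (chr18:70568189-70626131, plus strand), had a promoter signal of 4.93 in library 1 and 4.47 in library 2 (mean 4.70 ± 0.328, SD, n = 2). The peak at chr18:70568121-70568400 reached the windows of both protein-coding starts, and the 3 internal starts, none of a protein-coding transcript, were closed. An intronic peak at chr18:70569221-70569420 had 0.980 and 0.795. A peak upstream of the gene at chr18:70564501-70564700 had 0.960 and 0.432 and differed most between the libraries.

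Uhrf1, the reader of half-methylated DNA that brings Dnmt1 to replicated sites (chr17:56303321-56323486, plus strand), had a promoter signal of 3.44 in library 1 and 4.14 in library 2 (mean 3.79 ± 0.496, SD, n = 2). Both values were above the median of open promoters in their library. The peak at chr17:56304081-56304260 lay just upstream of 3 protein-coding starts, at 56304313, 56304348 and 56304407. The 2 protein-coding starts 992 and 913 bases further upstream, at 56303321 and 56303400, and both internal starts had no peak in either library. Uhrf1 is known mainly from dividing cells. All 6 genes of a list of proliferation genes were open at a start in each library, with median signals of 3.85 and 3.78. Of all protein-coding genes 63.6% were open in each library. No peak lay in the introns of Uhrf1. The peaks away from starts in its window lay in neighbouring genes, chr17:56294376-56294527 with 0.681 and 1.07 and chr17:56326942-56327038 with 0.402 and 0.715.

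The open and the closed promoter of Uhrf1 are printed with footprint bases in capitals, the closed one up to its first start.
Uhrf1 open start, chr17:56304063-56304312, plus strand: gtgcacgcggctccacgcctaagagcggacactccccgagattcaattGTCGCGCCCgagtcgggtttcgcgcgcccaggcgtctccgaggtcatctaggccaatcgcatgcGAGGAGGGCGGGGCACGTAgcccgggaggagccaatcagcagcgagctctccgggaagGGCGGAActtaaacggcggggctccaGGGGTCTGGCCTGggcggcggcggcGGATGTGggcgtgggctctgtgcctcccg
Uhrf1 closed upstream start, chr17:56303087-56303320, plus strand: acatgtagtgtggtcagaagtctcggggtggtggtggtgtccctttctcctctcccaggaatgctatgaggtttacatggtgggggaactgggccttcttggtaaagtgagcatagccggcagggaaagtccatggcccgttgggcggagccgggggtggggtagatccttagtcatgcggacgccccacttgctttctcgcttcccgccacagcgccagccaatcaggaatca
The open stretch held 55 footprint bases and its 300-base promoter 33 CpG sites. The closed stretch held 0 footprint bases and its promoter 12 CpG sites.

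**Figure D2:**
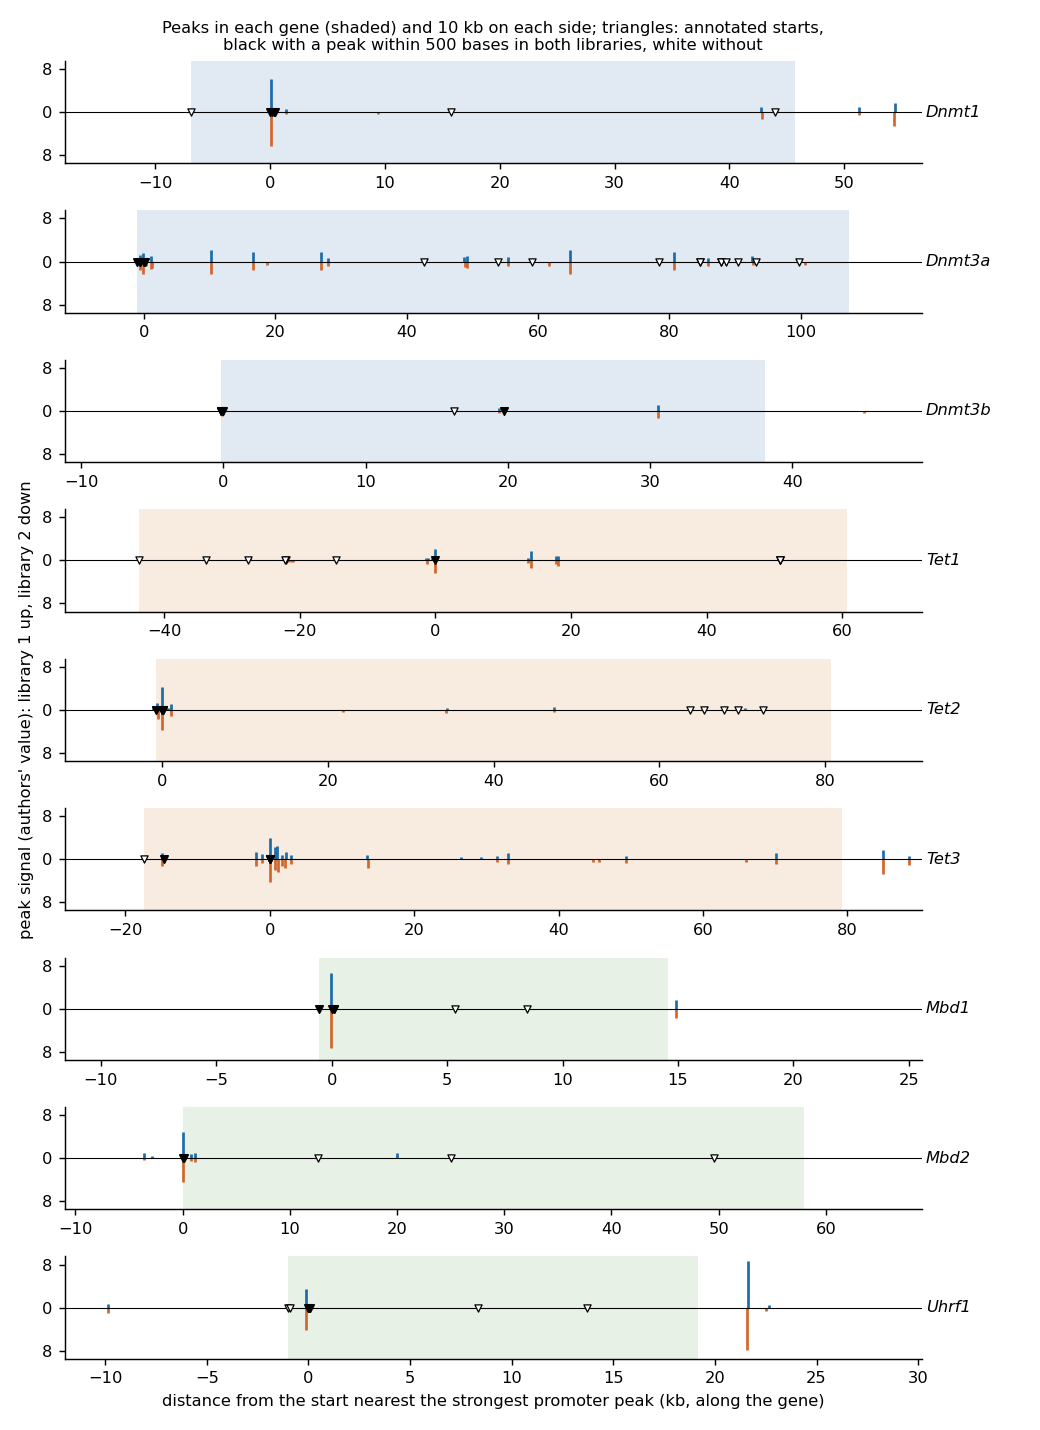
Peaks of the 9 genes along the gene (horizontal axis, kb from the start nearest the strongest promoter peak), with the signal of library 1 upwards and of library 2 downwards. Shading is the gene body and triangles are annotated starts, black where a peak lay within 500 bases in both libraries. Tet3 and Dnmt3a carry the most peaks, Mbd1 has 1 inside its body, and for Tet1 all starts left of 0 are white.

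The number of peaks differed widely between the genes. Tet3 had 18 peaks in library 1 and 19 in library 2, and Dnmt3a had 14 and 20. Tet1 had 9 and 10, Tet2 had 9 and 6, Mbd2 had 6 and 4, Dnmt1 had 5 and 6, Uhrf1 had 4 and 4, Dnmt3b had 3 and 4, and Mbd1 had 2 and 2. Since longer genes hold more peaks, each count was set beside the 200 protein-coding genes of nearest length. Tet3 then stood at percentile 96.3 in library 1 and 91.5 in library 2, and Dnmt3a at 79.5 and 92.3. With these flanks of 10 kb the others lay at percentile 64.5 or lower in both libraries. That placing depends on the flank: with 50 kb, the mean percentile of Uhrf1 was 94.6, against 59.2 with 10 kb, and that of Dnmt1 was 77.2, against 47.4. Tet2 moved most between the libraries, at percentiles 64.5 and 34.8.

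In all, the windows held 70 peaks in library 1 and 75 in library 2 over 0.755 Mb. Introns held the largest number, 33 and 38, and starts of the 9 genes held 17 and 19. Exons held 9 and 7, of which 6 and 5 were exons of retained-intron transcripts only, and the rest stood at starts of neighbouring genes or beyond the genes. Peaks away from starts were placed by their midpoints. Bases with a false discovery rate under 0.05 made up 3.18% of the windows in library 1 and 3.58% in library 2. Over the windows of all protein-coding genes they made up 2.64% and 3.07%. The highest share was that of Uhrf1, 4.95% and 6.27%, whose window includes the strong promoter of the neighbouring Kdm4b, and Tet3 followed with 4.69% and 5.14%.

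Most of these peaks were found in both libraries. Of the 70 peaks of library 1, 60 shared 1 base or more with a peak of library 2, or 85.7% (exact binomial 95% interval 75.3 to 92.9%), against 77.8% of all library 1 peaks. Of the 75 peaks of library 2, 60 did, or 80.0% (69.2 to 88.4%), against 73.2% of all. The shares of all peaks lay inside these intervals, which cover the counting of peaks only. Unshared peaks were the weaker ones, their median signals being 0.422 and 0.499. Shared ones had 1.00 and 1.15.

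**Figure D3:**
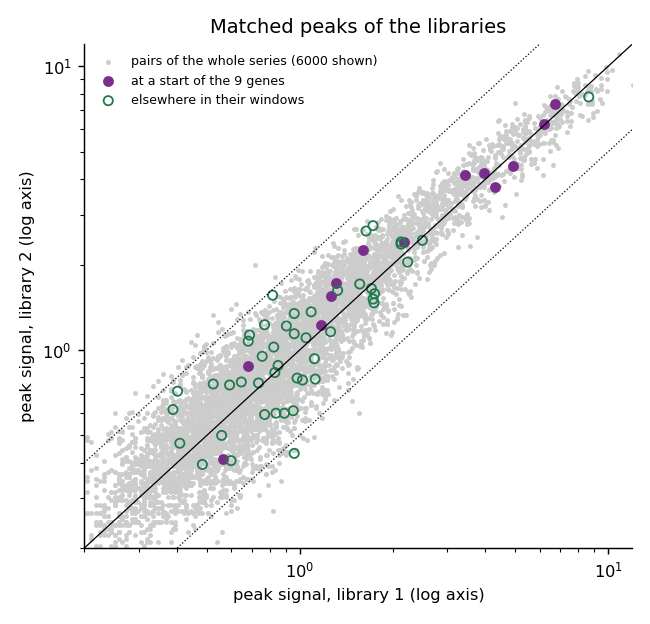
Signal of matched peaks in library 1 (horizontal) and library 2 (vertical), both log axes, for the pairs in the windows of the 9 genes, at their starts in library 1 (filled) and elsewhere (open), over 6000 pairs of the whole series (grey). The solid line is equality and the dotted lines a 2-fold difference. The points of the 9 genes follow the grey cloud, and 1 pair lies past a dotted line.

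Peaks that were each other's strongest overlap gave 59 matched pairs in the windows. One pair differed more than 2-fold, the peak upstream of Mbd2, with a log2 ratio of library 2 over library 1 of -1.15. Over the whole series 1.59% of 99347 pairs did. The median log2 ratio was 0.09 over the 59 pairs (SD 0.42) and 0.09 over all pairs (SD 0.40). Of the 59 pairs, 39 lay over 500 bases from any annotated start of any gene in both libraries. Of these, 3 had a higher mean signal than the promoter of their gene, 2 in Dnmt3a and 1 in Dnmt3b. Those genes had the lowest mean promoter signals of the 9, 1.93 and 0.778. How often such pairs occur over all protein-coding genes was not counted.

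Footprints covered about the same share of bases in the promoter peaks of the 9 genes as in promoter peaks in general. They took 15.0% of the bases of 17 promoter peaks in library 1 and 15.3% of 19 in library 2. The shares over promoter peaks of all protein-coding genes were 15.1% and 15.2%. Footprints per 100 bases numbered 1.27 and 1.39 in the 9 genes, against 1.13 and 1.14 over all. Their median width was 9 bases in each library, against 11 over all. Of the 59 footprints in library 1, 61.0% overlapped a library 2 footprint, and of the 68 in library 2, 58.8% overlapped one of library 1. Over all promoter peaks 65.5% and 56.5% did. These shares are lower than those of peaks given above.

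Among the strongest promoter peaks, that of Mbd1 held the most footprints, 8 in library 1 and 9 in library 2, over 41.7% and 36.0% of its bases. Tet3 had 7 and 7, Tet2 had 6 and 5, Tet1 had 5 and 4, Dnmt1 had 4 and 6, Mbd2 had 4 and 6, and Uhrf1 had 4 and 3. Dnmt3a had 2 and 3, and Dnmt3b had 4 and 1. The lowest footprinted shares were those of Dnmt3a, at 7.27% and 9.17%, Dnmt3b, at 11.2% and 3.75%, and Tet1, at 16.2% and 9.0%, which also had the 3 weakest promoter peaks. The part of peak signal in the number of footprints was not tested.

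**Figure D4:**
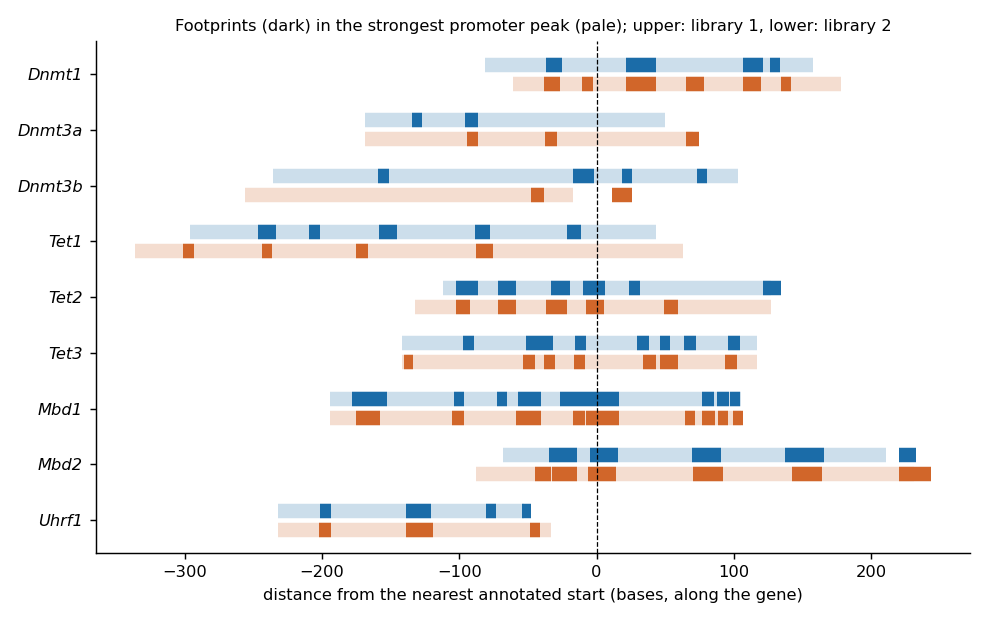
Footprints (dark) within the strongest promoter peak (pale) of each gene, by distance in bases from the nearest annotated start, along the gene, with library 1 above library 2; footprints inside the peak of either library are drawn. Mbd1 has the most, 8 and 9, on both sides of the start, and all those of Uhrf1 and Tet1 lie upstream of it.

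RefSeq gave 12 promoters for 7 of the genes, each of 300 bases from 250 before to 50 after a start, some overlapping. Of these, 8 overlapped a peak in each library, 3 in neither and 1, of Tet1, in library 2 alone. The 8 open promoters had a median of 33 CpG sites and 73.7% G and C. The 3 closed ones had 12 and 58.3%. Over 21237 promoters of protein-coding genes the 11585 open in both libraries had a median of 22 CpG sites and the 8615 open in neither had 3. By the median, open promoters were thus richer in CpG sites among these genes and in general. The groups overlapped among these genes: the open Dnmt1 promoter at 20952979 had 12 CpG sites. The closed promoters of Uhrf1 and Dnmt3a had 12 and 18.

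A set of 12 motifs was searched on both strands of the 12 promoters. The GC box GGGCGG, bound by SP and KLF factors, was in 10 of 12, and in 46.2% of all promoters. Of the 8 open promoters 7 held it, and 68.7% of all open ones did. The NFY motif CCAAT was in 5 of 12 and in 38.2% of all. The NRF1 core was in 2, both of Dnmt1, and in 8.58% of all, the E2F motif TTTNGCGC in 2 (1.75% of all) and the E-box CACGTG in 1 (7.84% of all). No match was found to the ETS motif CCGGAAG (11.6% of all), the AP-1 motif TGANTCA (6.99%), the YY1 motif AANATGGCG (3.12%), the CRE TGACGTCA (2.24%), the BANP and Kaiso motif CTCGCGAG (1.24%), the RFX motif GTTGCCATG (0.687%) or the MEF2 motif CTAAAAATA (0.410%). Of 29 GC box matches, 7 lay wholly inside a footprint of either library, and of 14 CCAAT matches 0 did. Counting any shared base, 10 GC box matches and 3 CCAAT matches touched a footprint. These counts include matches in closed promoters, which held no footprint bases. The same counts over all promoters were not made, so the motifs cannot be compared in this. Overlapping promoters count some matches again.

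Other genes of the same pathways were mostly open as well. Of 35 related genes, 33 were open at a start in each library, against 63.6% of all protein-coding genes. Their median promoter signal was 3.001 in library 1 and 3.367 in library 2. Over all protein-coding genes the medians were 1.31 and 1.55, and among those open in each library 3.13 and 3.47. Genes listed as related writers, mostly but not all cofactors and chromatin partners of methylation, were open in 7 of 9 cases, with median signals of 1.80 and 1.87. The exceptions were Dnmt3l, the cofactor of de novo methylation in germ cells, with 0.381 in library 1 and no peak in library 2, and Dppa3, which guards methylation in the early embryo, with none in either. Setdb1, a histone methyltransferase, and Trim28, its partner at silenced repeats, stood highest, with means of 4.58 ± 0.696 and 4.48 ± 0.360 (SD, n = 2). Of 6 genes of germ cells and early embryo 2, Dazl and Tex14, were open in each library.

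The genes listed as related readers, not all of which are known to bind methylated DNA, were open in 9 of 9 cases. They had the highest medians, 4.68 and 5.09. Mbd3 and Mbd5, listed by their methyl-binding domain family alone, led with 8.81 ± 0.687 and 8.40 ± 0.512 (SD, n = 2), above Mbd1 and Mbd2. The zinc finger readers Zbtb4, with 1.74 ± 0.300, and Zbtb38, with 1.34 ± 0.0342, were lowest. Related erasers, which repair, supply or guide the oxidised bases, were open in 17 of 17 cases, with medians of 3.12 and 3.55. Xrcc1, a scaffold of base excision repair, had 8.30 ± 0.908 and Gadd45b, a stress and activity gene tied to demethylation, 7.51 ± 0.464. The repair glycosylase Neil3, with 0.346 ± 0.0948, and the cytidine deaminase Apobec1, with 0.668 ± 0.155, were lowest.

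**Figure D5:**
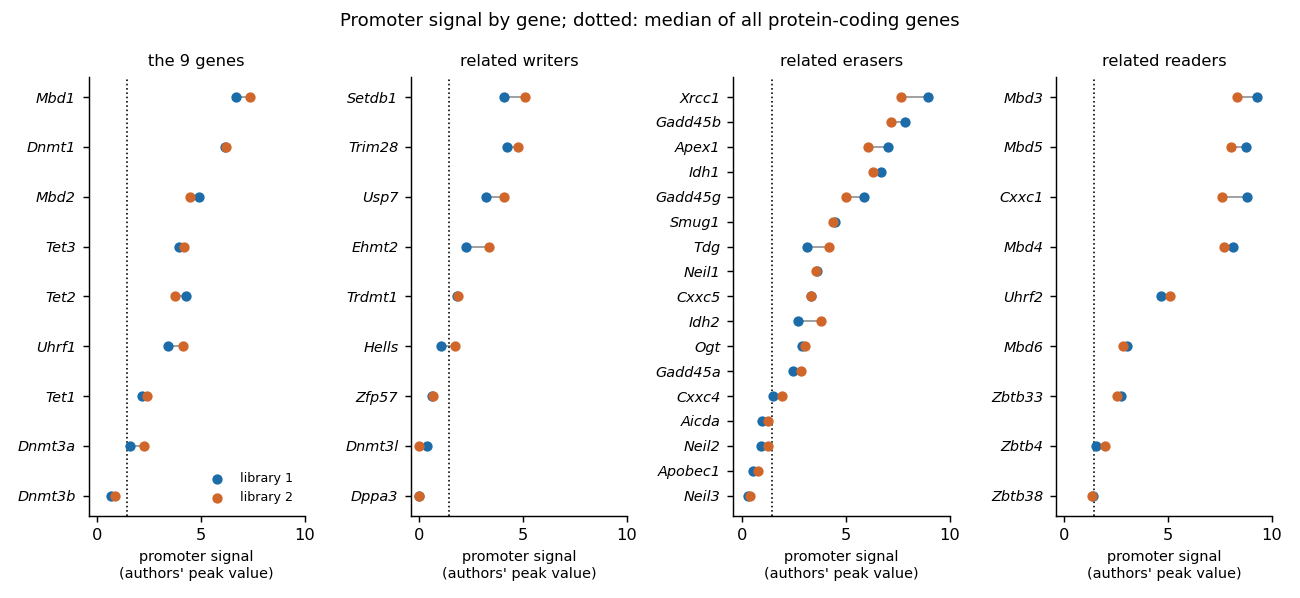
Promoter signal (the authors' peak value, horizontal axis) by gene for the 9 genes and the related writers, erasers and readers, with a point for each library. The dotted line is the mean over the libraries of the medians of all protein-coding genes. Genes listed as readers reach furthest right, led by Mbd3 at 8.81, and Dppa3 stands at 0.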

How the data were processed

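The authors deposited, per library, 2 peak lists, a footprint list and a per-base table on build mm10. Aligner, peak caller and versions: not given in the sources used here. Each peak's signal was deposited by the authors with no stated normalization, so genes were ranked within a library, and ratios of signals between the libraries carry any difference in scale. The deposited per-base tables list q-values (false discovery rates) under 0.05, and the deposited footprints carry a q-value of 0.01 in every line. Peaks and footprints of each library were deposited separately.

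Members and lists were chosen with earlier results of these data known. From the longer peak list, on chromosomes 1 to 19, X and Y, the strongest peak overlapping a window of 500 bases on each side of a start gave the promoter signal. Peaks in the gene plus 10 kb were counted and set beside the 200 genes of nearest span. All 9 genes are named. One gene of the related list is not reported here and was left out of its counts. Of related genes the text names the 2 highest and 2 lowest per role and those without a promoter peak in both libraries, and of distal matched peaks at most 2 per gene. Distal peaks of Dnmt3a, Tet2, Tet3 and Mbd2 beyond that were added after their values were seen. There is 1 group, so no test was run. Alternatives were start windows of 250 or 2000 bases, gene windows without flanks or with 50 kb, the shorter list, peaks at or above the median signal, protein-coding starts, merged peaks, 50% overlap, stricter rates of 0.005 and 0.001, 500 genes of nearest span and each library alone. Overlap, window and percentile steps were tested on simulated data. Python 3.11.15 was used with pandas 2.3.3, numpy 2.4.6, scipy 1.17.1 and matplotlib 3.10.9.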

Additional observations from a re-analysis of the deposited data

How the results depend on the processing

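The count of 9 open genes, the median promoter signal of 4.05 and the promoter signal of each gene came out at the same value with windows of 250 and 2000 bases and with the shorter list. The starts with a peak in both libraries numbered 32 to 43 of 74 under the other windows and lists. With protein-coding transcripts only they numbered 23 of 46, a count not made over all protein-coding genes. The promoter signal of Tet1 was then 0.383 in place of 2.29. That value is the mean of peaks at different starts, 0.470 in library 1 and 0.296 in library 2. It is below the 0.778 of Dnmt3b, so with protein-coding starts Tet1 was the weakest of the 9 genes. The mean of 72.5 peaks became 145.5 with flanks of 50 kb and 44 with the shorter list. The shared percentage of 82.9% became 67.7% when 50% of both peaks had to overlap and 77.3% with the shorter list. The footprinted share of promoter peaks of 15.2% became 16.2% and 12.5% with windows of 250 and 2000 bases and 18.6% with the shorter list. Bases under the false discovery rate limit, 3.38%, became 2.40% under 0.005, 2.03% under 0.001, 3.69% without flanks and 3.68% with flanks of 50 kb. The cause was not tested, beyond what a smaller or larger window or list does by construction. Percentiles of peak numbers moved by more than the spread of the libraries for 4 of 9 genes without flanks, 6 with flanks of 50 kb, 4 with the shorter list and 1 with 500 genes. By more than 1.5 times, Uhrf1 moved to 94.6 with 50 kb and 32.6 without flanks, Dnmt1 to 77.2, Tet2 to 20.2 and Mbd1 to 8.5 with 50 kb, and Mbd1 to 41.4 with the shorter list, against 59.2, 47.4, 49.6 and 27.4 for Uhrf1, Dnmt1, Tet2 and Mbd1.

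With either library left out the ranges were 9 to 9 genes, 35 to 38 starts, 3.95 to 4.14 for the median signal, 70 to 75 peaks, 80.0 to 85.7% shared, 15.0 to 15.3% footprinted and 3.18 to 3.58% of bases. No paired analysis was possible because there is 1 group. Depth is unknown and a pair of libraries from a single donor identifier gives a weak estimate of spread.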

Other observations

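Some starts of neighbouring genes inside the windows were open, and others, such as those of Gm48353 inside Tet1 and of Mir6374 and 5430434F05Rik inside Tet3, had no peak within 500 bases in either library. The strongest was that of Kdm4b, a histone demethylase gene downstream of Uhrf1, at chr17:56325841-56326060, with a signal of 8.66 in library 1 and 7.81 in library 2, above every promoter of the 9 genes. The start of Eif3g, a translation factor gene beside Dnmt1, had 1.64 and 2.63, that of Bola3 beside Tet3 had 0.687 and 1.13, and that of the antisense gene Dnmt3aos inside Dnmt3a had 0.851 and 0.882. A further peak within Bola3, at chr6:83356661-83356820, had 1.73 and 2.74. These neighbours were chosen after their values were seen.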
